A study of Mus musculus with 7 samples.

Results

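Immunoglobulin genes of mouse liver were described in 7 RNA-seq libraries from old C57BL/6 mice. For 3 libraries the diet label is a standard diet after MDL-800 supplementation, and for the 4 control libraries it is a standard diet. MDL-800 is a compound that activates SIRT6, a deacylase that uses NAD as its cosubstrate. The immunoglobulin genes were taken by annotation: 268 of the 54532 rows of the gene table carry a biotype that begins with IG_ and does not contain the word pseudogene, and 161 immunoglobulin pseudogene rows were set aside. Of the 268 genes, 146 lie in the heavy chain locus on chromosome 12, 110 in the kappa light chain locus on chromosome 6 and 12 in the lambda light chain locus on chromosome 16. By segment there were 13 constant genes, 218 variable (V) segments, 4 further V rows annotated as IG_LV, 19 diversity (D) segments and 14 joining (J) segments. The labels do not say that each library came from a separate mouse, so the p-values given here measure the spread between these libraries.

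An antibody is built from paired heavy and light chains, and each chain gene is assembled in a developing B cell by joining 1 V segment, a D segment in the heavy chain, and a J segment. The constant gene that follows sets the heavy chain class: Ighm encodes IgM, Ighd IgD, the Ighg genes IgG, Igha IgA and Ighe IgE, and activated B cells switch from Ighm to one of the others. Plasma cells are the B lineage cells that secrete antibody and carry its RNA in large amounts, and a clone of them carries the same V segments in every cell. Hepatocytes, the main cells of liver, do not rearrange these genes. In bulk tissue, fewer cells of a type and less RNA per cell cannot be told apart.

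The V segments with the most reads in each library are shown because the leading segment differed from library to library. The last 60 annotated bases of each are given, 5′ to 3′ on the coding strand, from GENCODE M21 transcripts of build GRCm38. Capitals mark the codons for tyrosine, a further residue and the conserved cysteine that ends framework 3, after which the hypervariable loop at the V to J junction, CDR3, begins. The search pattern TANTNNTGN was found on the coding strand in the last 60 bases of 209 of the 218 V segments (95.9%) and of 5.99% of all 141515 GENCODE M21 transcripts, and on either strand in 96.3% and 12.3%. The heavy chain V segments below lie on the minus strand of chromosome 12.
Ighv1-82 (chr12:115952538-115952597): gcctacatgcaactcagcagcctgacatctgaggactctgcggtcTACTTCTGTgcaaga
Ighv1-56 (chr12:115242802-115242861): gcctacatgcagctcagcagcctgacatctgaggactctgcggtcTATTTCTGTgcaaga
Ighv1-72 (chr12:115757984-115758043): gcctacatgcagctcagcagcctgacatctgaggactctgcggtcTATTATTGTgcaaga
Ighv1-78 (chr12:115868773-115868832): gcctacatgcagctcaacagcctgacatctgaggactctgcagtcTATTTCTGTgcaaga
Ighv6-3 (chr12:114391712-114391771): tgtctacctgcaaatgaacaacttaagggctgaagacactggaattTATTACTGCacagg
Ighv7-4 (chr12:114222788-114222847): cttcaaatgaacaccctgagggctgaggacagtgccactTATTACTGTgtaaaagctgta
Ighv2-9-1 (chr12:113769850-113769909): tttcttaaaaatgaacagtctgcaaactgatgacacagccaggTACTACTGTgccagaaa

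The kappa segments below lie on chromosome 6, Igkv4-55 on the minus strand and the others on the plus strand, and Iglv1 lies on the minus strand of chromosome 16. In the kappa segments more bases follow the cysteine codon than in the heavy segments, because the kappa V segment encodes most of CDR3.
Igkv9-120 (chr6:68050397-68050456): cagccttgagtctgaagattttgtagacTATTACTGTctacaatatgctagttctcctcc
Igkv3-2 (chr6:70699008-70699067): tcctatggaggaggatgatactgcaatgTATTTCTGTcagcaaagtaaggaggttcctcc
Igkv3-4 (chr6:70672318-70672377): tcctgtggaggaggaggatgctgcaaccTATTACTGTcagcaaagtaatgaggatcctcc
Igkv4-55 (chr6:69607275-69607334): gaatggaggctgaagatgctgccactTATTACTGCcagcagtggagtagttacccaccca
Igkv17-127 (chr6:67861600-67861659): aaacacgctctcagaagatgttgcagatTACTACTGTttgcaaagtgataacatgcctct
Iglv1 (chr16:19085017-19085076): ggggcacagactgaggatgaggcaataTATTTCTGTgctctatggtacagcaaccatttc

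The 4 Ighv1 segments share most of these bases, and the leading heavy V segments were 60.7% to 88.3% identical in pairs over their whole annotated transcripts. Ighv1-72 was 99.2% identical to its closest neighbour, Ighv1-62-3, and Igkv17-127 was 97.5% identical to Igkv17-121. How the authors' counting divided reads between such copies was not given in the sources used here, so a value of a single V segment is uncertain to that extent. The same holds for Ighg2b and Ighg2c (86.8% identical), Iglc2 and Iglc3 (95.4%), and Iglv1 and Iglv2 (97.1%).

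The deposited values are FPKM, reads scaled by gene length and library size, and whole read numbers could be recovered from them for 17600066 to 19920469 reads per library. Hepatocyte genes such as Alb stood far above every other list examined, with summed levels of 6 hepatocyte genes of 55574 FPKM or more in all 7 libraries. Y-linked genes had reads in MDL-800 2 and control 1 and none in the other 5 libraries, so the libraries differ in this respect within both groups. No gene of the table passed limma with Benjamini-Hochberg adjustment at 0.05. Libraries are named by group and by the number in their titles.

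Immunoglobulin RNA was found in every library, and its amount differed from library to library by more than the groups differed. The immunoglobulin genes held 28279, 1845 and 5245 reads in MDL-800 1, 2 and 3, and 5791, 5920, 34041 and 7733 reads in control 1, 2, 3 and 4. As a share of all recovered reads this was 0.154%, 0.00926% and 0.0274% with MDL-800, and 0.0318%, 0.0306%, 0.193% and 0.0430% in controls. MDL-800 1 and control 3, 1 library of each group, stood above all others, and MDL-800 2 was the lowest.

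Igkc, the kappa constant gene (chr6:70726435-70726966), was the most abundant immunoglobulin gene per length in all 7 libraries. Its level was 859, 66.4 and 157 FPKM with MDL-800 and 225, 170.3, 1206 and 298 FPKM in controls. The group means were 361 ± 434 FPKM (SD, n = 3) with MDL-800 and 475 ± 490.3 FPKM (SD, n = 4) in controls, so the SD was about as large as the mean and the groups overlapped. The 8 heavy constant genes summed to 466, 30.3 and 75.1 FPKM with MDL-800 and to 108, 89.6, 688 and 139 FPKM in controls. The 4 lambda constant genes summed to 73.5, 4.91 and 12.3 FPKM against 11.4, 6.12, 224 and 53.2 FPKM.

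Heavy and kappa constant RNA kept a close ratio over the libraries. The ratio of summed heavy constant FPKM to Igkc FPKM was 0.543, 0.456 and 0.478 with MDL-800 and 0.479, 0.526, 0.570 and 0.465 in controls, a 1.25-fold range, while the heavy sum itself spanned 22.7-fold and Igkc 18.2-fold. The lambda sum did not keep such a ratio: it was 6.12 FPKM beside an Igkc of 170.3 FPKM in control 2, and 53.2 FPKM beside 298 FPKM in control 4.

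**Figure D1:**
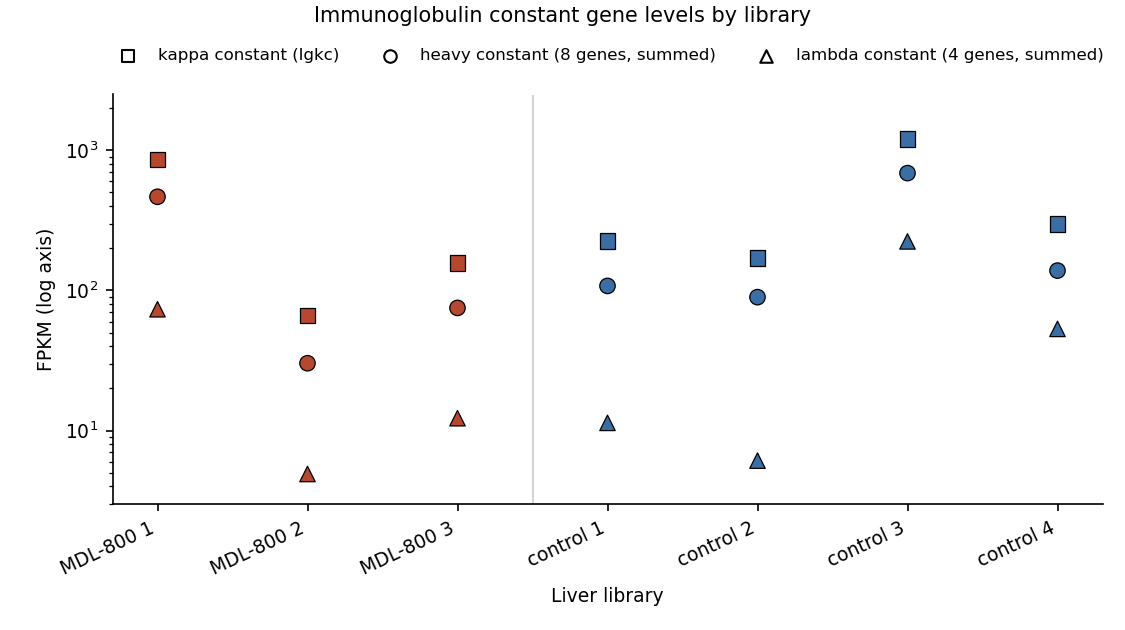
Summed FPKM of constant genes on a log axis for each of the 7 liver libraries, with Igkc as squares, the 8 heavy constant genes as circles and the 4 lambda constant genes as triangles, MDL-800 in red and control in blue. MDL-800 1 (Igkc 859 FPKM) and control 3 (Igkc 1206 FPKM) are the highest of their groups, and the groups overlap at all 3 loci.

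Ighm was the leading heavy chain gene in 7 of 7 libraries by FPKM, and IgG, led by Ighg2c in most libraries, was the next class by FPKM in all but control 3, where the 4 Ighg genes together passed it. Ighm held 52.2%, 56.3% and 70.9% of heavy constant FPKM with MDL-800, and 65.0%, 93.6%, 47.1% and 92.4% in controls. The 4 Ighg genes together held 41.8%, 29.3% and 16.7% with MDL-800 and 25.8%, 3.50%, 47.8% and 5.72% in controls. IgM therefore made up nearly all heavy chain RNA in control 2 and control 4, while the IgG share was highest in control 3 and MDL-800 1, the libraries with most immunoglobulin RNA.

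The mean IgM share was 59.8% ± 9.80 (SD, n = 3) with MDL-800 and 74.5% ± 22.6 (SD, n = 4) in controls, and the control range enclosed the MDL-800 range. FPKM in the table divide by a gene length that holds both the secreted and the membrane exons. With the shorter annotated transcript of each gene in its place, a choice made after the data were seen, the IgM share fell to 46.7%, 46.6% and 62.1% with MDL-800 and to 56.4%, 89.9%, 40.1% and 88.03% in controls. On that scale IgG held 51.7% in control 3, and in control 2 IgA (5.04%) passed IgG (4.72%), as it did by reads (3.81% and 3.603%). The order of the libraries by IgM share was kept apart from MDL-800 1 and 2, which differed by less than 1 point.

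IgA, the class of mucosal secretions, held 5.40%, 10.8% and 10.7% of heavy constant FPKM with MDL-800 and 7.43%, 2.73%, 4.73% and 1.39% in controls. IgD, which naive B cells carry beside IgM, held 0.418%, 3.58% and 1.68% against 1.72%, 0.181%, 0.173% and 0.515%. For both classes the groups overlapped. Ighe had 19 reads in MDL-800 1, 2 in control 1, 38 in control 3 and 0 in the other 4 libraries, where a count of 0 allows a share of up to 0.329% (MDL-800 2), 0.118% (MDL-800 3), 0.0901% (control 2) and 0.0767% (control 4) of heavy constant reads. These limits cover counting error only, since PCR copies were not marked by molecular identifiers.

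**Figure D2:**
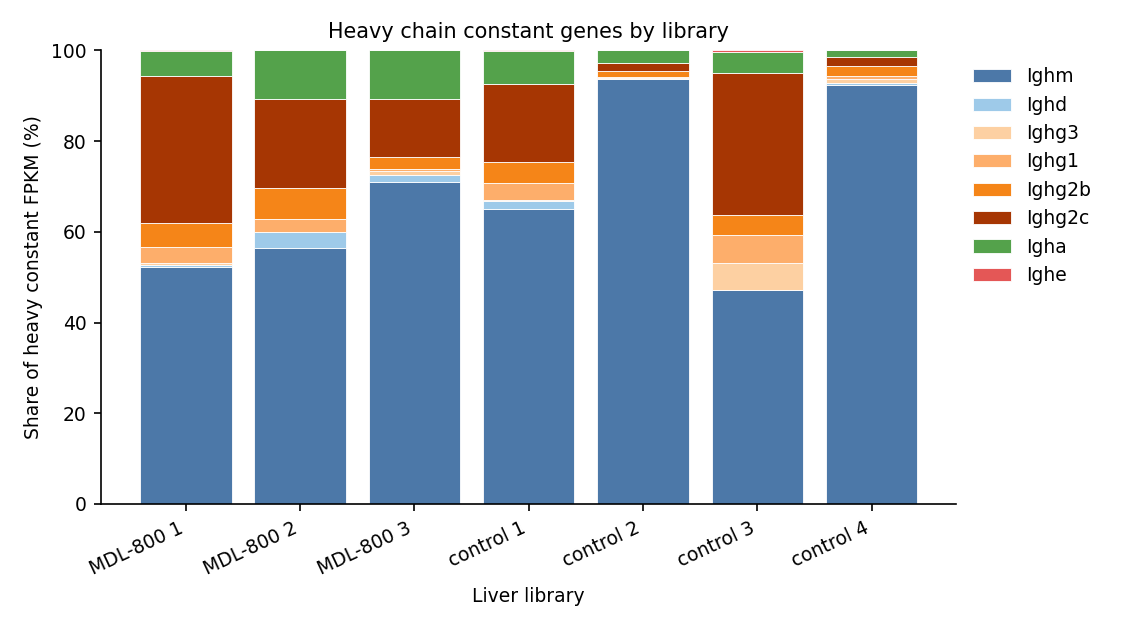
Share of summed heavy constant FPKM held by each of the 8 heavy constant genes, as stacked bars from 0 to 100% for each of the 7 liver libraries. Ighm runs from 47.1% in control 3 to 93.6% in control 2, and Ighg2c from 1.82% in control 2 to 32.6% in MDL-800 1.

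Among the IgG subclasses, Ighg2c, the C57BL/6 counterpart of the IgG2a gene of other strains, was the most abundant by FPKM in 6 of 7 libraries. The table divides Ighg2c by 1326 bases and Ighg2b by 2678, which raises Ighg2c on the FPKM scale. By reads, Ighg2b exceeded Ighg2c in control 2 (65 against 42) as well as in control 4 (128 against 54). Ighg2c had 151.9, 5.92 and 9.63 FPKM with MDL-800 and 18.4, 1.63, 215 and 2.76 FPKM in controls, a 132-fold range. Its share of IgG FPKM was 78.02%, 66.7% and 76.8% with MDL-800 and 66.3%, 51.9%, 65.3% and 34.8% in controls. The groups did not overlap for this share, with 66.7% as the lowest MDL-800 value and 66.3% as the highest control value. This was 1 of many shares examined and was not tested, and groups did not overlap for 6.45% of all genes tested. The 2 values at the boundary were nearly equal. By reads, Ighg2c had 122 of 244 IgG reads in MDL-800 2 and 354 of 712 in control 1. The lowest control shares rest on 120 reads in control 2 and 254 in control 4.

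Ighg2b was the next subclass in most libraries, with 24.3, 2.07 and 1.89 FPKM with MDL-800 and 5.12, 1.25, 30.7 and 3.24 FPKM in controls. By FPKM it exceeded Ighg2c in control 4 only. Ighg1 had 16.4, 0.894 and 0.462 FPKM against 3.96, 0.0992, 43.1 and 0.680 FPKM. Ighg3 had 2.12, 0 and 0.544 FPKM against 0.274, 0.164, 40.03 and 1.24 FPKM. Control 3 differed from MDL-800 1 here: both were rich in Ighg2c, but Ighg3 had 1424 reads in control 3 and 92 in MDL-800 1.

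The lambda share of light chain RNA separated control 3 and control 4 from the rest. Lambda constant genes held 7.88%, 6.89% and 7.24% of light chain constant FPKM with MDL-800 and 4.81%, 3.47%, 15.7% and 15.2% in controls. On the scale of reads, the 95% Wilson intervals were 13.3% to 14.7% in control 3 and 13.8% to 16.4% in control 4, above the upper bounds of the other 5 libraries, the highest of which was 8.94%. The control libraries thus lay on both sides of the MDL-800 range, and the groups overlapped.

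Different lambda genes made up that share in the 2 libraries. Iglc1, which is joined to Iglj1 and mostly to Iglv1, had 398, 15 and 44 reads with MDL-800 and 27, 26, 1292 and 87 reads in controls. Iglc2 had 174, 17 and 59 reads against 51, 31, 145 and 227 reads. Iglc3, next to Iglc1 on the chromosome, had 49, 7 and 10 reads against 10, 5, 40 and 99 reads. Iglc1 was highest in control 3, and Iglc2 and Iglc3 were highest in control 4. Iglc4 had 1 read in all, in control 4.

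Iglv1, like Iglc1, was highest in control 3. Iglv1 had 358, 10 and 52 reads with MDL-800 and 21, 8, 905 and 17 reads in controls. Iglv2 had 10, 5 and 3 reads against 15, 6, 20 and 4 reads, and Iglv3 had 19, 5 and 7 reads against 5, 6, 24 and 10 reads. Per 100 lambda constant reads there were 62.3, 51.3 and 54.9 lambda V reads with MDL-800 and 46.6, 32.3, 64.3 and 7.49 in controls, so control 4 had lambda constant reads with few V reads beside them. Iglc1, Iglc3, Iglv1 and 3 lambda J rows overlap 2010309G21Rik on the opposite strand, and the library chemistry does not mark strand, so reads of the 2 genes cannot be told apart.

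Heavy V segments were read in all libraries, but each library had a leader of its own. Of 113 heavy V segments, 25 had no read in any library. Ighv1-82 led in MDL-800 1 with 15.2% of heavy V reads (95% Wilson interval 13.6% to 17.1%, 242 of 1588 reads). Ighv1-56 led in MDL-800 2 with 12.2% (6.76% to 21.01%, 10 of 82 reads), and Ighv1-72 led in MDL-800 3 with 9.96% (6.73% to 14.5%, 23 of 231 reads). In these libraries no single heavy V segment stood far above the others.

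Among the controls, Ighv6-3 held 22.7% of heavy V reads in control 1 (18.0% to 28.3%, 58 of 255 reads) and Ighv2-9-1 held 13.1% in control 3 (11.5% to 15.0%, 189 of 1440 reads). Ighv7-4 held 39.7% in control 2 (33.7% to 45.9%, 96 of 242 reads) and had 0 reads in the other 6 libraries. Ighv1-78 held 56.4% in control 4 (49.8% to 62.8%, 124 of 220 reads) and had at most 4 reads in any other library. Control 2 and control 4, the 2 libraries in which Ighm was over 90% of heavy constant FPKM, were also the 2 in which a single heavy V segment held the largest share of reads.

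The 8 heavy V segments with the highest mean level over all libraries were Ighv1-26, Ighv2-9-1, Ighv1-53, Ighv1-82, Ighv1-9, Ighv3-6, Ighv7-3 and Ighv1-69. Ighv1-26 had 216, 7 and 19 reads with MDL-800 and 18, 4, 53 and 3 reads in controls. Ighv1-53 had 66, 1 and 21 reads against 18, 23, 88 and 14 reads. These 2 were the only heavy V segments among the leaders that held at least 1% of heavy V reads in all 7 libraries. Of the other 6, 5 had most of their reads in 1 library: Ighv1-82 had 242 of its 274 reads and Ighv1-9 had 155 of its 216 reads in MDL-800 1, and Ighv2-9-1 had 189 of 240, Ighv7-3 had 134 of 150 and Ighv1-69 had 89 of 133 reads in control 3. Ighv3-6 had its reads mainly in 2 libraries, 75 of 160 in control 3 and 66 in MDL-800 1. These counts follow the amount of immunoglobulin RNA as well. As a share of heavy V reads, Ighv1-69 was higher in control 2 (12.8%) than in control 3 (6.18%).

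Kappa V usage showed the same pattern, with 1 exception. Igkv3-2 held 12.3%, 11.5% and 9.26% of kappa V reads with MDL-800 and 41.5%, 13.4%, 24.7% and 15.9% in controls, and it was the only leading kappa segment above 5% in all 7 libraries. Its level was 59.1, 4.60 and 11.3 FPKM with MDL-800 and 50.5, 8.98, 134 and 22.2 FPKM in controls. Igkv3-2 lies near the J segment end of the locus, at chr6:70698449-70699067. It led in MDL-800 2, control 1 and control 3.

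In the other 4 libraries another kappa segment led. Igkv9-120 held 20.2% in MDL-800 1 (18.8% to 21.6%, 633 of 3139 reads), and 633 of its 696 reads came from that library. Igkv3-4 held 56.2% in MDL-800 3 (52.7% to 59.6%, 455 of 810 reads) and Igkv4-55 held 29.7% in control 2 (25.9% to 33.9%, 146 of 491 reads). Igkv17-127 held 56.0% in control 4 (52.5% to 59.4%, 436 of 779 reads) and at most 0.988% in any other library. Control 4 was therefore dominated by 1 heavy and 1 kappa V segment with nearly equal shares of their loci.

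Of the remaining kappa segments with the highest mean levels, Igkv6-25 had 238 of its 269 reads, Igkv10-96 had 192 of 285 and Igkv3-5 had 176 of 240 in MDL-800 1. Igkv4-50 had 195 of its 207 reads in control 3. Over all loci, 108 V segments had at least 20 reads, and 67 of these had more than 50% of their summed FPKM in 1 library. The highest level was in MDL-800 1 for 36 of the 108 and in control 3 for 58. Of the 67, 59 were highest in 1 of these 2 libraries. Both libraries also held the most immunoglobulin reads, so these counts do not separate V usage from the amount of immunoglobulin RNA.

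**Figure D3:**
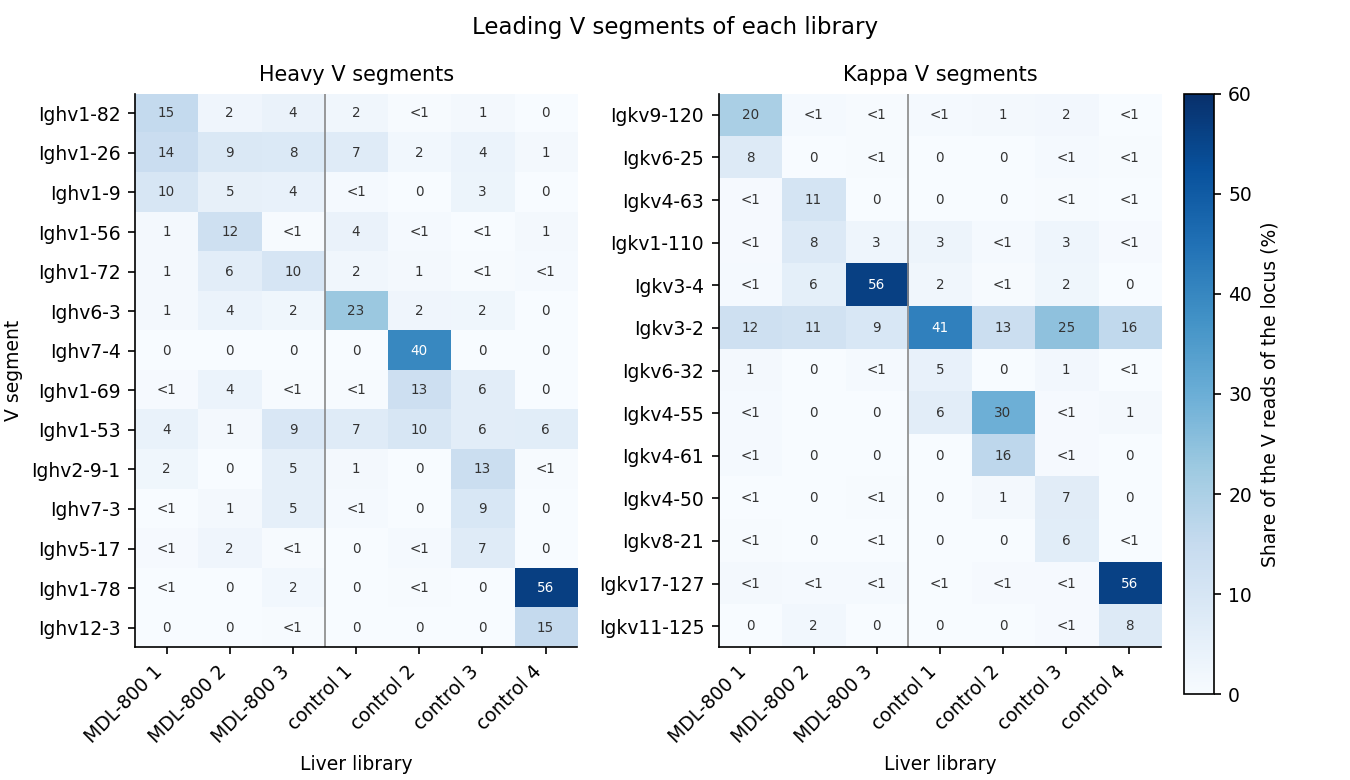
Share of heavy V reads (left) and kappa V reads (right), in %, held by the 3 leading V segments of each of the 7 liver libraries, with darker cells for larger shares and the MDL-800 libraries to the left of the line. Igkv3-2 holds at least 9.26% in every column, while Ighv7-4 (39.7% in control 2), Ighv1-78 (56.4% in control 4), Igkv3-4 (56.2% in MDL-800 3) and Igkv17-127 (56.0% in control 4) each hold a far smaller share, or none, in the other columns.

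The number of V segments seen depends on the number of reads, so each library was compared at the read number of the smallest. At 82 heavy V reads, the expected number of segments was 29.4, 39.0 and 34.1 with MDL-800 and 31.7, 24.1, 31.7 and 14.4 in controls. At 235 kappa V reads it was 46.8, 44.0 and 37.5 with MDL-800 and 42.9, 35.4, 50.7 and 20.3 in controls. Control 4 had the fewest segments at both loci and control 2 the second fewest. MDL-800 1 and control 3, with most reads, lay within the range of the others for heavy segments and had the most kappa segments.

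Among heavy V families, Ighv1 was the largest, with 54 segments and 62.2%, 57.3% and 61.5% of heavy V reads with MDL-800 and 51.8%, 41.3%, 44.7% and 79.5% in controls. Ighv14, a family of 4 segments, held 7.12%, 4.88% and 3.46% with MDL-800 and 1.57%, 1.24%, 2.22% and 0.909% in controls. It was the only V family of either locus whose groups did not overlap, and it was picked out after its values were seen. All heavy and kappa families were looked at and none was tested. Groups also did not overlap for 6.45% of all genes tested. In MDL-800 2 its share rests on few of the 82 heavy V reads. Among kappa families, Igkv3 held 21.98%, 22.98% and 69.01% against 49.3%, 15.7%, 31.5% and 18.0%, and Igkv4 held 9.62%, 17.02% and 6.79% against 10.6%, 57.03%, 20.2% and 8.99%.

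Some segments of note for B cell biology are named here after their values were seen, and their reads were not confined to the IgM-rich controls. Ighv11-2 and Igkv14-126, and Ighv12-3 and Igkv4-91, are textbook heavy and light chain pairs of B-1 cells that bind phosphatidylcholine. Ighv12-3 had 33 reads in control 4, 15.0% of its heavy V reads, 1 read in MDL-800 3 and 0 elsewhere. Igkv4-91 had 55 reads in control 4 and 59 in MDL-800 1, and 1 to 5 in the others. Ighv11-2 had 9 reads in control 2, 0 in control 4 and 0 to 10 in the others. Its family, in which it alone had reads, held 3.72% of heavy V reads in control 2 and 3.66% in MDL-800 2. Igkv14-126 had 39 reads in control 2 and 0 to 23 in the others. Read counts per gene do not show which heavy and light chains came from the same cell.

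Joining segments are short, so few reads fall on them, and they are shown because the only tested immunoglobulin genes whose groups did not overlap were 2 of the kappa J segments, Igkj1 and Igkj2. That is 2 of 93 genes (2.15%), beside 6.45% of all genes tested: 1 was higher with MDL-800, as 4.03% of all genes were, and 1 was lower, as 2.42% were. The 5 kappa J segments lie in a row on the plus strand of chromosome 6, upstream of Igkc, from Igkj1 at chr6:70722562-70722599 to Igkj5. Capitals mark TTCGG, which codes for the start of the conserved Phe-Gly-X-Gly turn. Igkj3 lacks these letters and is known to be a non-functional segment.
Igkj1: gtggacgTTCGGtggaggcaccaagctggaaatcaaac
Igkj2: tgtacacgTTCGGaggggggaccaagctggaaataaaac
Igkj3: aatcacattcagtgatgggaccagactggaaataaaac
Igkj4: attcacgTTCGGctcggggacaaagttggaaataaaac
Igkj5: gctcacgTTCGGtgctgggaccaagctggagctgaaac

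Igkj2 had 6, 3 and 10 reads with MDL-800 and 0, 0, 2 and 0 reads in controls. Igkj1 had 2, 0 and 0 reads with MDL-800 and 3, 3, 7 and 3 reads in controls. Every MDL-800 library was thus above the controls for Igkj2 and below them for Igkj1 on the FPKM scale, with numbers of reads near the limit of 3 that a count of 0 allows. Igkj3 had 9, 0 and 3 reads against 1, 1, 3 and 8 reads, Igkj4 had 6, 2 and 1 reads against 1, 0, 6 and 10 reads, and Igkj5 had 9, 2 and 1 reads against 1, 3, 6 and 8 reads. Those 3 segments overlapped between the groups, and all 5 overlap the row Gm30211 on the same strand, as Igkc does.

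The other J and D segments had fewer reads still. Ighj4 had 5, 0 and 2 reads with MDL-800 and 2, 0, 4 and 6 reads in controls, and Iglj1 had 5, 2 and 0 reads against 0, 2, 16 and 2 reads. Iglj3p had 1 read in MDL-800 3 and 2, 1 and 3 reads in control 2, 3 and 4. Ighj2 had 4 reads over all libraries, Ighj1, Ighj3 and Iglj3 had 1 read each, and Iglj2 and Iglj4 had none. Of the 19 D segments, 18 had no read, and Ighd4-1, which is 11 bases long, had 2 reads in MDL-800 1 and none elsewhere.

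V reads were also set against constant reads. For the heavy locus there were 10.9, 9.001 and 9.09 V reads per 100 constant reads with MDL-800 and 8.52, 7.27, 7.94 and 5.63 in controls. For the kappa locus there were 39.8, 42.8 and 55.2 with MDL-800 and 38.5, 27.9, 31.9 and 33.3 in controls. Both ratios were higher in each MDL-800 library than in each control library, and the lambda ratio overlapped. The closest heavy values, 9.001 in MDL-800 2 and 8.52 in control 1, rest on 82 and 255 V reads. The closest kappa values, 39.8 in MDL-800 1 and 38.5 in control 1, rest on 3139 and 668 V reads. A cause of this was not tested, and these ratios were examined among many others. Groups also did not overlap for 6.45% of all genes tested.

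Between MDL-800 and control, none of the 93 immunoglobulin genes that averaged 1 FPKM or more passed limma at an adjusted p of 0.05, where 0.0% of the 11394 genes tested passed. At an unadjusted limma p under 0.05, 3 of the 93 (3.23%) were counted, beside 4.85% of all genes tested. Of these, 2 were higher with MDL-800, where 3.23% of all genes were, and 1 was lower, where 1.62% were. With limma voom on recovered reads, 0 of the 93 passed and 2 had an unadjusted p under 0.05, beside 755 of all 11394 genes.

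The 93 comprised 36 heavy, 49 kappa and 8 lambda genes. The remaining 175 fell under the minimum, and 60 of those had no read in any library. Of the 93, 40 lay above 0 and 53 below 0 on the log2 scale of MDL-800 over control, with a median of -0.13, beside a median of 0.02 over all genes tested. Folds are on the scale of log2(FPKM + 1), which understates the change of genes with low values.

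Every constant gene overlapped between the groups. Ighm had 243 FPKM, 17.1 FPKM and 53.3 FPKM with MDL-800 and 70.1, 83.9, 324 and 128 FPKM in controls, a log2 fold change of -1.02 (SE 0.91, 95% interval -3.17 to 1.13, limma adjusted p 0.95). Igkc had a log2 fold change of -0.72 (SE 0.99, 95% interval -3.05 to 1.61, limma adjusted p 0.95). Ighg2c had a log2 fold change of 0.65 (SE 1.74, 95% interval -3.46 to 4.77, limma adjusted p 0.97). All 3 intervals include 0 and are wide.

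The other constant genes lay between -1.02 (Ighg3) and 0.43 (Igha). Ighg1 was at -0.30, Ighg2b at -0.11, Iglc1 and Iglc2 at -0.60, Iglc3 at -0.53 and Ighd at 0.36 on the log2 scale. In exact two-sided permutation tests over the 35 assignments of libraries, the 13 constant genes had p from 0.40 to 1.0, where the smallest possible p was 0.0286. Directions of Ighg1, Ighg2b, Ighg2c, Igha, Igkc and the 3 lambda genes turned when single libraries were left out. Without control 3 the median over the immunoglobulin genes tested was 0.54, and without MDL-800 1 it was -0.84.

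**Figure D4:**
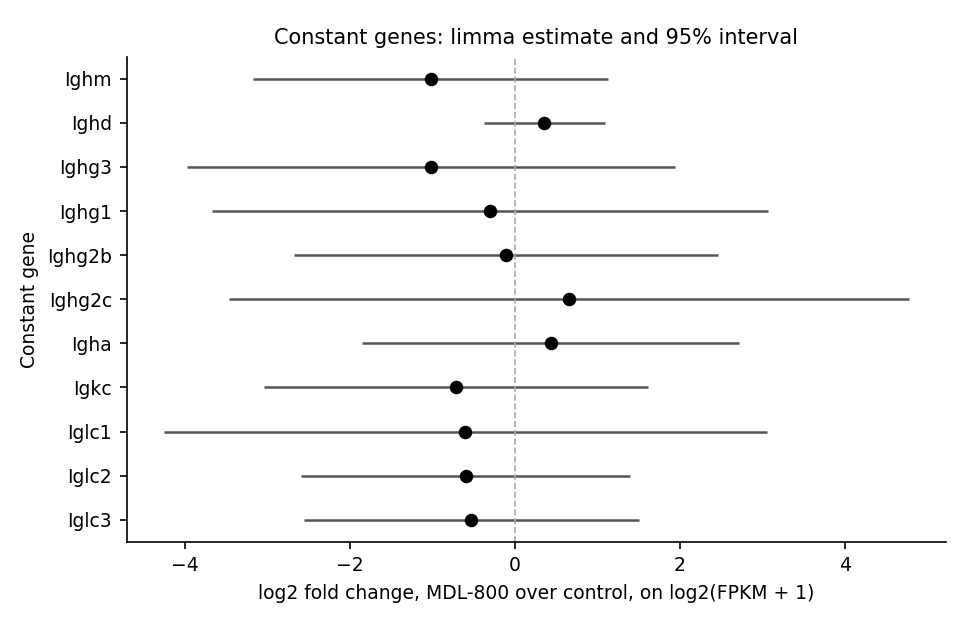
limma log2 fold change of MDL-800 over control on log2(FPKM + 1), as points with 95% confidence intervals as bars, for the 11 constant genes that averaged 1 FPKM or more. All 11 intervals include 0, from Ighd (0.36) with the narrowest to Ighg2c (0.65) with the widest.

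The smallest p-values among the immunoglobulin genes belonged to segments with few reads. Igkj2 was higher by 2.63 on the log2 scale (SE 0.60, limma unadjusted p 0.00304, adjusted p 0.95) and Igkj1 was at -2.203 on the same scale (SE 0.58, limma unadjusted p 0.00631, adjusted p 0.95). Ighv1-72, the leader of MDL-800 3, had 16, 5 and 23 reads with MDL-800 and 5, 3, 6 and 2 reads in controls and a log2 fold change of 0.86 (limma unadjusted p 0.0313, adjusted p 0.95). None of these passed the adjusted threshold.

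Next among the genes above 0 were Igkv4-63 at 1.18, Ighv10-3 at 1.26 and Igkv3-4 at 1.90 on the log2 scale. Ighv10-3 had 81 of its 85 reads in MDL-800 1, Igkv3-4 had 455 of its 571 in MDL-800 3, and Igkv4-63 had 22 and 25 reads in MDL-800 1 and 2 and none in MDL-800 3. Next among the genes below 0 were Igkv4-55 at -1.97, Iglj3p at -1.08, Ighv1-50 at -0.85 and Iglv2 at -0.53. Igkv4-55 had 28 reads in MDL-800 1, none in MDL-800 2 and 3, and 41, 146, 20 and 9 reads in controls.

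The spread within groups was large for immunoglobulin genes. The median SD of log2(FPKM + 1) within groups was 1.37 over the 93 genes and 0.223 over all genes tested, and 83 of the 93 exceeded 0.922, the 95th percentile of all genes. This spread takes in sampling of few reads for many V segments, but Igkc and Ighm, with at least 500 reads in every library, spanned 18.2-fold and 19.0-fold.

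Genes of the B lineage were examined beside the immunoglobulin genes. Of 12 B cell genes, 8 could be tested, and 0 passed limma at an adjusted p of 0.05. All 8 lay below 0, beside 5221 of all 11394 genes. Their median was -0.57, and they ran from -1.24 (Cd79b) to -0.02 (Blnk). Cd79a, a signalling chain of the B cell receptor, had 6.48, 0.707 and 1.88 FPKM with MDL-800 and 3.31, 0.635, 9.45 and 24.3 FPKM in controls. Cd79b, its partner, had 6.55, 0.944 and 2.27 FPKM against 1.83, 8.98, 6.91 and 23.4 FPKM. The sum over the 12 B cell genes was highest in control 4, with 76.9 FPKM against 28.9 in control 3 and 24.2 in MDL-800 1. It was 3.55 to 15.3 in the other 4 libraries. Cd79a and Cd79b made up most of the control 4 sum. Most of the 12 genes were highest in control 4, but not all. Blnk was highest in control 2 (1.92 FPKM), and Fcer2a and Cr2, with few reads, were lowest in control 4 (0.0219 and 0.0167 FPKM).

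Plasma cell genes differed among themselves in their order of libraries. Jchain, which links IgM and IgA into polymers and was singled out after its values were seen, had 34.8, 4.42 and 6.63 FPKM with MDL-800 and 11.7, 7.33, 52.7 and 3.07 FPKM in controls. It was highest in control 3 and MDL-800 1, as Igkc and the heavy constant sum were, and lowest in control 4. Mzb1, a chaperone of antibody secretion singled out in the same way, had 12.9, 0.711 and 1.26 FPKM against 2.89, 2.04, 11.7 and 12.7 FPKM. Pou2af1 and Irf4, from the same list, were highest in control 4 (4.07 and 0.816 FPKM), while others, among them Xbp1 and Sdc1, were highest in control 3. Control 4 thus had the highest Cd79a and Cd79b, a high Mzb1, the lowest Jchain and the narrowest V usage of the 7 libraries.

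Of the 12 plasma cell genes, 8 could be tested, and 0 passed. All 8 lay below 0, beside 5221 of all 11394 genes. Their median was -0.15, and they ran from -0.84 (Mzb1) to -0.07 (Sdc1). Those with the highest means, Xbp1 (64.1 to 137 FPKM), Sdc1 (50.7 to 129 FPKM) and Txndc5 (36.9 to 65.3 FPKM), are also expressed by hepatocytes. Xbp1 was lowest in MDL-800 1, a library rich in immunoglobulin RNA. The groups overlapped for every B cell and plasma cell gene.

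**Figure D5:**
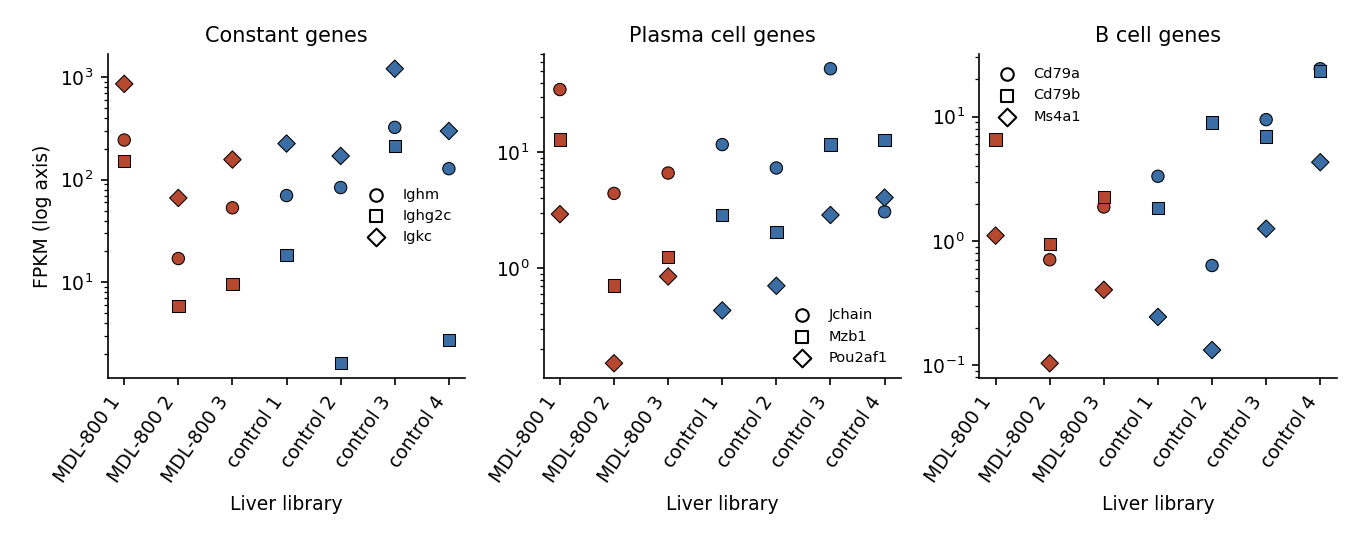
FPKM on log axes of 3 constant genes (left), 3 plasma cell genes (middle) and 3 B cell genes (right) in each of the 7 liver libraries, MDL-800 in red and control in blue. Control 3 has the highest Igkc (1206 FPKM) and Jchain (52.7 FPKM), and control 4 has the highest Cd79a (24.3 FPKM) and the lowest Jchain (3.07 FPKM).

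Among genes of immunoglobulin assembly, Rag1 and Rag2 were at or near 0. Rag2 had 0 reads in all 7 libraries and Rag1, the other subunit of the recombinase, had 0 FPKM in 6 libraries and 0.0233 FPKM in control 2. None of the 4 surrogate light chain genes, which stand in for light chains in precursor B cells, reached the minimum for the test: Vpreb3 reached 2.22 FPKM in control 3, Vpreb1 at most 0.402 and Igll1 at most 0.0475. Of 9 recombination and switching genes, 3 could be tested and 0 passed: Dntt, which adds bases at junctions, had 0.389 to 6.24 FPKM, and the repair genes Xrcc4 and Ung had 2.31 to 2.99 FPKM and 1.42 to 3.01 FPKM.

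Of 10 genes that carry or bind antibody, 9 could be tested, 3 above 0 and 6 below, and 0 passed. Pigr, which moves IgA into bile, had 509, 601 and 563 FPKM with MDL-800 and 600.4, 386, 503 and 407 FPKM in controls. Fcgrt, the neonatal Fc receptor heavy chain that protects IgG from breakdown, had 90.8, 101 and 86.2 FPKM against 97.2, 74.9, 78.1 and 66.8 FPKM. Fcer1g, the signalling chain of Fc receptors, had 41.2, 10.3 and 38.9 FPKM against 12.9, 217, 27.7 and 48.2 FPKM and was highest in control 2. These 3 genes overlapped between the groups, and none of them was highest in control 3 or MDL-800 1. Of the others in the list, Fcgr2b was highest in MDL-800 1 (7.29 FPKM) and Trim21 in control 3 (3.73 FPKM). The rest were highest in control 2 or control 4.

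Markers of other cells were read beside these results. Summed Kupffer cell markers (6 genes) ran from 120.0 to 413 FPKM with MDL-800 and from 112 to 764 FPKM in controls, with control 2 the highest. Summed T cell markers (8 genes) ran from 4.58 to 16.02 FPKM against 6.34 to 13.4 FPKM, and summed red blood cell genes (5 genes) from 126 to 179 FPKM against 139 to 807 FPKM. MDL-800 2, the lowest in immunoglobulin reads, was also the lowest in the summed B cell and T cell genes. The part of other cells, or of Y-linked status, in the immunoglobulin differences between libraries was not tested.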

How the data were processed

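Per the labels' protocols, lysed liver went straight into low-input SMARTer cDNA synthesis, and NEBNext libraries were made from the sheared cDNA. The authors deposited FPKM for every gene, with gene lengths, in 1 table. The submitters' processing notes list the tools TopHat2 (version 2.0.14), Bowtie2 (version 2.1.0) and Cufflinks (version 2.2.1) and the build mm9, but all 268 immunoglobulin genes have the coordinates of GENCODE M21 (GRCm38). The tool that counted reads was not given in the sources used here. FPKM times length gave whole reads for 100% of nonzero values (within 0.01), and 0 sample columns were unused.

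Recovered reads were 19133792 ± 784364 (SD, n = 3) with MDL-800 and 18284475 ± 758910 (SD, n = 4) in controls. Genes averaging 1 FPKM or more were tested as log2(FPKM + 1) with limma 3.58.1 in R 4.3.3 (trend, two-sided, no covariate, all 7 libraries, Benjamini-Hochberg over 11394 genes, threshold 0.05). On simulated data (5 sets of 54532 genes, 200 changed), the test called 1.24% of genes changed 1.5-fold, 16.9% at 2-fold, 76.7% at 4-fold, 86.8% at 8-fold, and 0.0518% of genes left as they were. The changed genes were drawn from all genes averaging 1 FPKM or more. Immunoglobulin genes varied more within groups (median SD 1.37 against 0.223 on the log2 scale), so these rates do not describe them. Shares have 95% Wilson intervals, and a count of 0 was given a limit of 3 reads.

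The members and lists were chosen with earlier results of these data known. Named genes were all constant genes, the 8 heavy and 8 kappa V segments with the highest means, lambda V and all J segments, in each direction the 5 members of smallest p, up to 3 genes a list (some listed genes are not reported here), and, added after the data were seen, each library's leading V segments. Alternatives were another pseudocount, other filters and scalings, voom, array weights, a robust prior, the replicate number as a block, each library left out, and libraries without Y-linked reads. Added after the data were seen were the fit without MDL-800 1 and control 3 together and the shorter transcript lengths. Same-numbered libraries did not pair: correlations of their deviations were -0.59, -0.55 and 0.06. RefSeq promoters were matched for 0 of the 268 genes, so the planned search for an octamer motif was not run. Sequences were read with Python 3.11.15 from GENCODE M21 transcripts.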

Additional observations from a re-analysis of the deposited data

Results flagged for a closer look

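In groups of 4, a value was looked at again when its gap to the nearest other library exceeded Dixon's 95% critical value as a share of the group's range, which chance does in about 1 in 20 groups. Only the control group has 4 libraries. Of 65 immunoglobulin values examined, 30 passed, 27 of them high in control 3, 2 in control 1 and 1 in control 4. The values are not independent, since they come from the same 4 libraries. The rate of 1 in 20 also assumes normally distributed values, and FPKM were used here without a log. A segment with reads in only 1 control library passes at any level, as Igkj2, Ighv10-3 and Ighj1 did in control 3. Many V segments were examined for their high means, which control 3 raises, so the 30 are a description only.

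In control 3 the constant genes were Igkc at 1206 FPKM, Ighg2c at 215 FPKM, Iglc1 at 201 FPKM, Ighg1 at 43.1 FPKM, Ighg3 at 40.03 FPKM and Ighg2b at 30.7 FPKM. The heavy constant sum was 688 FPKM there and the kappa constant sum was Igkc alone, 1206 FPKM. V sums in control 3 were 278 FPKM for heavy, 553 FPKM for kappa and 172 FPKM for lambda, and immunoglobulin genes held 0.193% of all recovered reads.

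Heavy V segments of control 3 were Ighv2-9-1 at 36.2 FPKM, Ighv7-3 at 26.2 FPKM, Ighv1-53 at 17.7 FPKM, Ighv3-6 at 15.1 FPKM, Ighv1-9 at 9.05 FPKM and Ighv10-3 at 0.375 FPKM. Light chain V segments of control 3 were Iglv1 at 163 FPKM, Igkv4-50 at 39.1 FPKM, Igkv9-120 at 9.40 FPKM, Igkv6-25 at 4.83 FPKM and Igkv4-63 at 1.40 FPKM. J segments of control 3 were Iglj1 at 29.7 FPKM, Igkj1 at 13.01 FPKM, Igkj2 at 3.28 FPKM and Ighj1 at 1.33 FPKM.

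In control 4, Igkv17-127 stood at 82.4 FPKM. In control 1, Iglj3 stood at 1.81 FPKM and Ighj2 at 0.689 FPKM, each from 1 read.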

How the results depend on the processing

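No immunoglobulin gene passed limma at an adjusted p of 0.05 under any of 19 alternatives, and the lowest adjusted p of a named gene was 0.121 (Igkj1 without MDL-800 1 and control 3 together, limma). Genes at an unadjusted p under 0.05 numbered 3 of 93 (553 of 11394 over all genes), against 8 of 208 with no filter (1083 of 26975), 0 of 30 with a mean of at least 5 FPKM (305 of 5900), 5 of 105 without libraries with Y-linked reads (603 of 11493) and 2 to 4 with single libraries left out. With the replicate block they numbered 6, while all genes at that level went from 553 to 192. Control 4 has no MDL-800 library of its number, so the block takes it out of the group estimate. Igha was at -0.0141 with the block and also with control 4 left out. Iglc3 was at 0.0645 with the block, which was also its highest value with single libraries left out.

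The median log2 fold change (-0.13) was 0.0763 with array weights and 0.14 without libraries with Y-linked reads, and ran from -0.84 to 0.54 with single libraries left out. The log2 differences of summed levels were -0.65 for heavy (-1.76 to 0.25 with single libraries left out, 0.0507 without libraries with Y-linked reads), -0.52 for kappa (-1.48 to 0.30, and 0.11) and -0.70 for lambda (-1.72 to 0.30). The lambda share differed by -2.44 points (-4.54 to -0.472) and the IgM share by -14.7 points (-23.8 to -8.32).

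Ighg2b turned to 0.13 with array weights and 0.35 without libraries with Y-linked reads (-1.14 to 0.65 with single libraries left out), and Ighg1 to 0.0739 with voom and 0.22 without libraries with Y-linked reads (-1.43 to 0.80). With single libraries left out, Igha ran from -0.26 to 1.16, Ighg2c from -0.73 to 1.96, Igkc from -1.74 to 0.10, Iglc1 from -1.77 to 0.64, Iglc2 from -1.28 to 0.0471 and Iglc3 from -1.12 to 0.0645. Beyond the libraries left out, the cause of these turns was not tested. Without MDL-800 1 and control 3 together, 50 immunoglobulin genes could be tested, with a median of -0.46.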
